A study of Mus musculus with 9 samples.

Results

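The genes described here encode the enzymes, carriers and regulators of fatty acid oxidation and ketone body formation in mouse liver. They were chosen by name from the deposited count table, and all 32 listed genes were found among its 56748 rows. Bulk RNA was sequenced from the liver of mice labelled C57BL/6 (C57BL/6J in the series' design text), young adults by the study's methods, in 3 groups of 3 libraries. Control mice were labelled water, and the design text gives its control group 200 µL of sterile water by mouth each day. DSS mice had 3 cycles of 1.8% dextran sulfate sodium (DSS) in their drinking water, each of 1 week followed by 1 week without it, plus the same daily volume of sterile water, and Indirubin mice had the same DSS cycles with 1 g/kg of indirubin in that volume each day. DSS damages the lining of the colon and is a standard way to cause colitis in mice, and indirubin is a plant-derived pigment found in indigo naturalis. The Control samples carry no DSS label, yet the design text lists its control group among mice given DSS and mentions no group without colitis, so that the Control mice had none rests on the sample labels alone. In whole liver, fewer cells of a type and less RNA per cell cannot be told apart.

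As background, the liver burns fatty acids when glucose is short. A long-chain fatty acid is joined to coenzyme A, carried into the mitochondrion as a carnitine ester, and shortened in repeated rounds of dehydrogenation, hydration, a further dehydrogenation and thiolysis, with the electrons of the opening step passing through electron transfer flavoprotein to the respiratory chain. Peroxisomes shorten very long, branched and dicarboxylic acids by a parallel set of enzymes. The acetyl-CoA released in fasting is turned into ketone bodies that other tissues burn, and the nuclear receptor PPARα, encoded by Ppara, drives many of these genes.

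Total counts lay between 6514863 and 7944684 per library, but 71.6% to 91.3% of them were mitochondrial, and nuclear genes held 569044 to 2132208. The 32 genes together held 2064 to 5091 counts per library, or 0.186% to 0.418% of the nuclear counts. The share was lowest in Indirubin-2 (0.186%), Indirubin-3 (0.222%) and DSS-3 (0.239%) and highest in Control-1 (0.418%). Hepatocyte markers were present in every library, led by Alb (albumin) with 30849 to 127946 counts. The libraries Indirubin-2 and Indirubin-3 stood apart. All 12 pancreatic acinar markers had counts there and summed to 833 and 1062 normalized CPM, against 0 to 23.1 in the other 7 libraries. The most counted of them, Ctrb1 (a digestive protease precursor), had 1959 and 2817 counts there and at most 20 elsewhere. The 8 neutrophil markers, led by S100a8, summed to 239 and 85.7 normalized CPM in these libraries and to 26.1 in Indirubin-1. They summed to 11.5 to 17.4 in DSS and 1.17 to 3.17 in Control, so every DSS and Indirubin library was above every Control library. In Indirubin-3 the 8 striated muscle markers, led by Acta1, summed to 201 against at most 7.34 in any other library. Fabp4, the most counted of 7 adipocyte markers, had 523 and 565 counts in Indirubin-2 and Indirubin-3, while Adipoq, Ucp1 and Cidea were at 0 in every library. The 10 macrophage markers, led by Cd5l, summed to 91.8 to 166 in Control, 137 to 161 in DSS and 170 to 199 in Indirubin. The 7 enterocyte markers, led by Fabp2, did not exceed 11.3. The part of these transcripts in the results below was not tested. Counts of members, and those fold changes printed below that turn on these libraries, are also given without them.

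Levels are given as normalized CPM, counts per 1000000 of a library size scaled by the trimmed mean of M-values (TMM) across the 9 libraries. To compare genes with each other, counts were given per kb of gene length and per 1000000 nuclear counts. On that per-length scale Acaa2, the thiolase of the mitochondrial spiral, had the highest median over the 9 libraries at 291. It was followed by Acaa1b (160), a peroxisomal thiolase, and by Etfa (127) and Etfb (121), the subunits of electron transfer flavoprotein. Acadl (57.0), Acadm (33.5) and Hsd17b4 (32.0) came next. The lowest were Hadhb (4.31), the regulator Ppara (3.95), the hormone gene Fgf21 (2.96) and Acot2 (1.13). In the Control libraries Acaa2 ranged from 221 to 402, Acaa1b from 162 to 218, Etfa from 144 to 193 and Etfb from 79.9 to 134, so that in this order Acaa1b and Etfa did not differ beyond their spread, while Acaa2 was above Acaa1b and Etfa above Etfb in every Control library. Ppara had at most 39 counts in any library, Fgf21 at most 32 and Acot2 at most 40, so folds of these genes are imprecise.

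**Figure D1:**
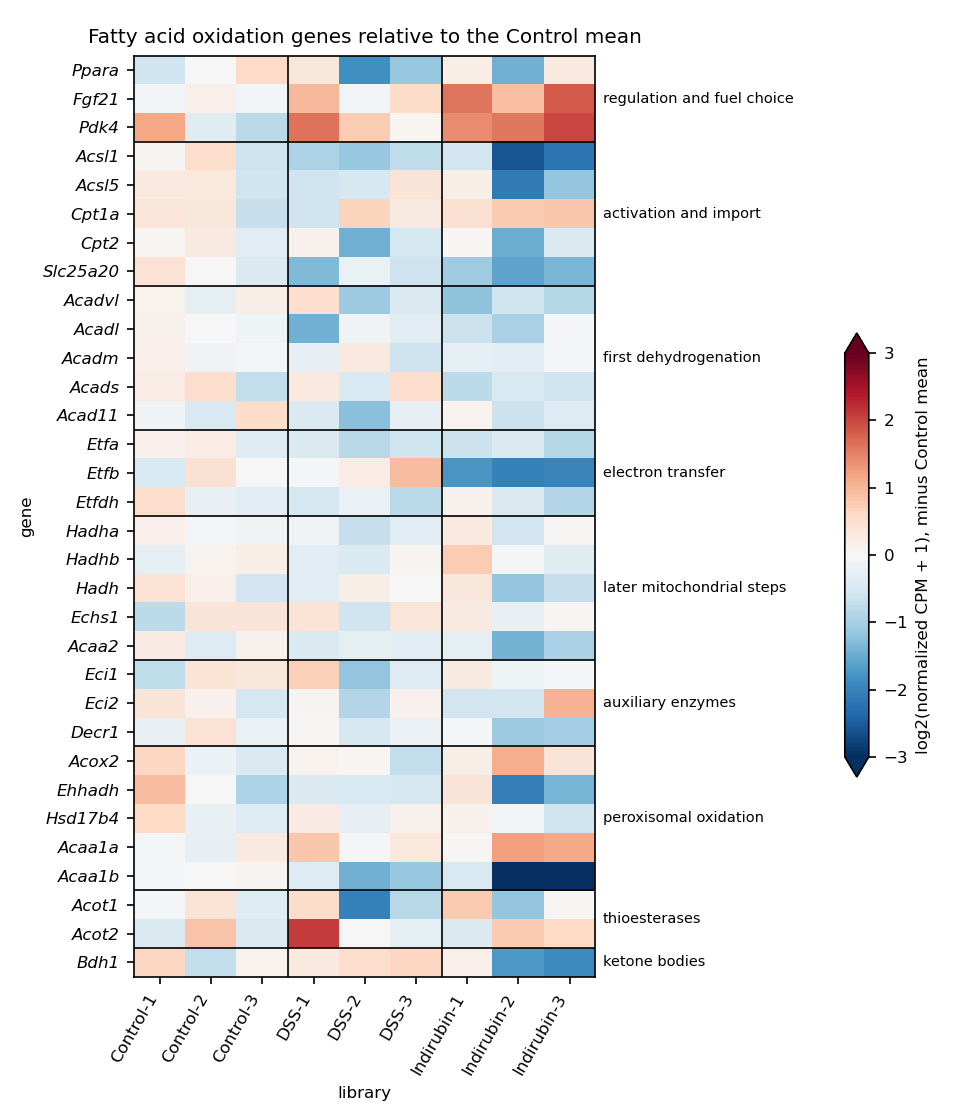
Difference of log2(normalized CPM + 1) from the mean of the 3 Control libraries (colour, cut at ±3) for each of the 32 genes (rows, ordered by role) in each of the 9 libraries (columns). Etfb is blue in all 3 Indirubin libraries, whereas Acaa1b, Acsl1, Ehhadh and Bdh1 are strongly blue in Indirubin-2 and Indirubin-3 but not in Indirubin-1; Acaa1b reaches -4.58 and -4.59 there, beyond the scale.

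Each comparison was tested with edgeR's quasi-likelihood test on all genes past the count filter, with Benjamini-Hochberg adjustment over all of them. With an adjusted p below 0.05 as the threshold, none of the 32 genes passed in any of the 3 comparisons. In DSS against Control, 53 of 7482 genes passed (0.708%), in Indirubin against DSS 0 of 9117 (0%), and in Indirubin against Control 19 of 8059 (0.236%). The DESeq2 Wald test called 0, 1 and 2 of the 32 genes in the same order of comparisons, namely Etfb in Indirubin against DSS and Etfb and Slc25a20 in Indirubin against Control, all lower in Indirubin. It called 143, 80 and 316 of all genes.

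DSS against Control asked what colitis did to the liver. Of the 30 members past the filter, 8 had a fitted log2 fold change above 0 and 22 below, with a median of -0.20 beside 0.01 over all genes tested. Acot1, among those below 0, met the filter's minimum in every Control library but not in every DSS library, so its place there is no support. At an unadjusted p below 0.05, 0 members were higher and 2 were lower, Acsl1 and Acaa1b, against 3.48% and 4.05% of all genes. The ranges of the groups did not overlap for 3 members, all lower in DSS (Acsl1, Etfa and Acaa1b), against 7.1% of all genes higher and 8.54% lower without overlap. With 3 libraries a group the exact permutation test cannot go below p = 0.10, the value it gave for each of these. When libraries were scaled by total counts alone, most of which are mitochondrial, the median over all genes moved to 0.70 and that of the members to 0.47, with 25 of 30 members above 0, so the sign of small differences depends on the scale. Scaling by nuclear counts alone left 8 above and 22 below.

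Indirubin against DSS asked what indirubin added to colitis. All 32 members passed the filter, 14 with a log2 fold change above 0 and 18 below, and the median was -0.05 beside 0.15 over all genes. Of those above 0, Fgf21, Pdk4 and Acot1 met the filter's minimum in every Indirubin library but not in every DSS library. They passed only through the group where they were higher, so their place in this split is no support. This split turned with the scale: by total counts alone 18 were above and 14 below with a median of 0.18, and by nuclear counts alone 18 of 31 were above and 13 below with a median of 0.06. At an unadjusted p below 0.05, 0 members were higher against 4.45% of all genes, and 2 were lower, Etfb and Bdh1, against 3.22%. Without overlap, 1 member was higher (Acox2, against 10.5% of all genes) and 2 were lower (Etfb and Bdh1, against 5.92%). Without Indirubin-2 and Indirubin-3, where the lone Indirubin library is assumed to vary like the DSS group, 21 members were above 0 and 11 below with a median of 0.32, and Etfb alone had a p below 0.05, lower in Indirubin, against 1.83% of all 11118 genes higher and 1.92% lower. Without Indirubin-1, 8 were above and 24 below with a median of -0.29, 9 were lower at an unadjusted p below 0.05 against 579 of all 10817 genes (5.35%), and of 134 genes (1.24%) past an adjusted p of 0.05, Acaa1b, Etfb and Bdh1 had adjusted p-values of 0.00106, 0.0138 and 0.0231 by edgeR.

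Indirubin against Control was tested on 31 members, of which 8 were above 0 and 23 below, with a median log2 fold change of -0.41 beside 0.13 over all genes. At an unadjusted p below 0.05, 2 were higher (Fgf21 and Acaa1a, against 7.45% of all genes) and 4 were lower (Etfb, Slc25a20, Acsl1 and Acadvl, against 6.38%). Without overlap, 3 members were higher (Fgf21, Pdk4 and Cpt1a, against 12.2% of all genes) and 5 lower (Etfb, Etfa, Slc25a20, Acadvl and Acaa1b, against 9.32%). Of these, Fgf21 and Pdk4 passed the filter only through the Indirubin libraries, where they were high (0 and 1 of 3 Control libraries reached its minimum). The filter thus favoured a difference, and their place in these counts and in the split above and below 0 is no support. Acot1, above 0 in that split at 0.07, likewise reached the minimum in 3 Indirubin but only 2 Control libraries. Scaled by total counts alone, the medians were 0.47 for the members and 1.10 for all genes, and 24 of 31 members were above 0, while nuclear counts alone left 10 of 30 above and 20 below. Without Indirubin-2 and Indirubin-3 the median of the members was 0.04 beside 0.01 over all genes, with 18 of 30 above 0, and 0 were higher and 3 lower (Etfb, Acadvl and Slc25a20) at an unadjusted p below 0.05, against 2.72% and 5.11% of all 9464 genes. Without Indirubin-1 the median was -0.75, 25 of 32 were below 0, 12 were lower at an unadjusted p below 0.05 against 855 of all 9721 genes (8.8%), and of 465 genes (4.78%) past an adjusted p of 0.05 by edgeR, 6 were members, namely Acaa1b, Acsl1, Etfb, Slc25a20, Acaa2 and Acsl5. The comparisons share groups: Control enters the first and the last and Indirubin the later pair, so their counts are not independent.

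**Figure D2:**
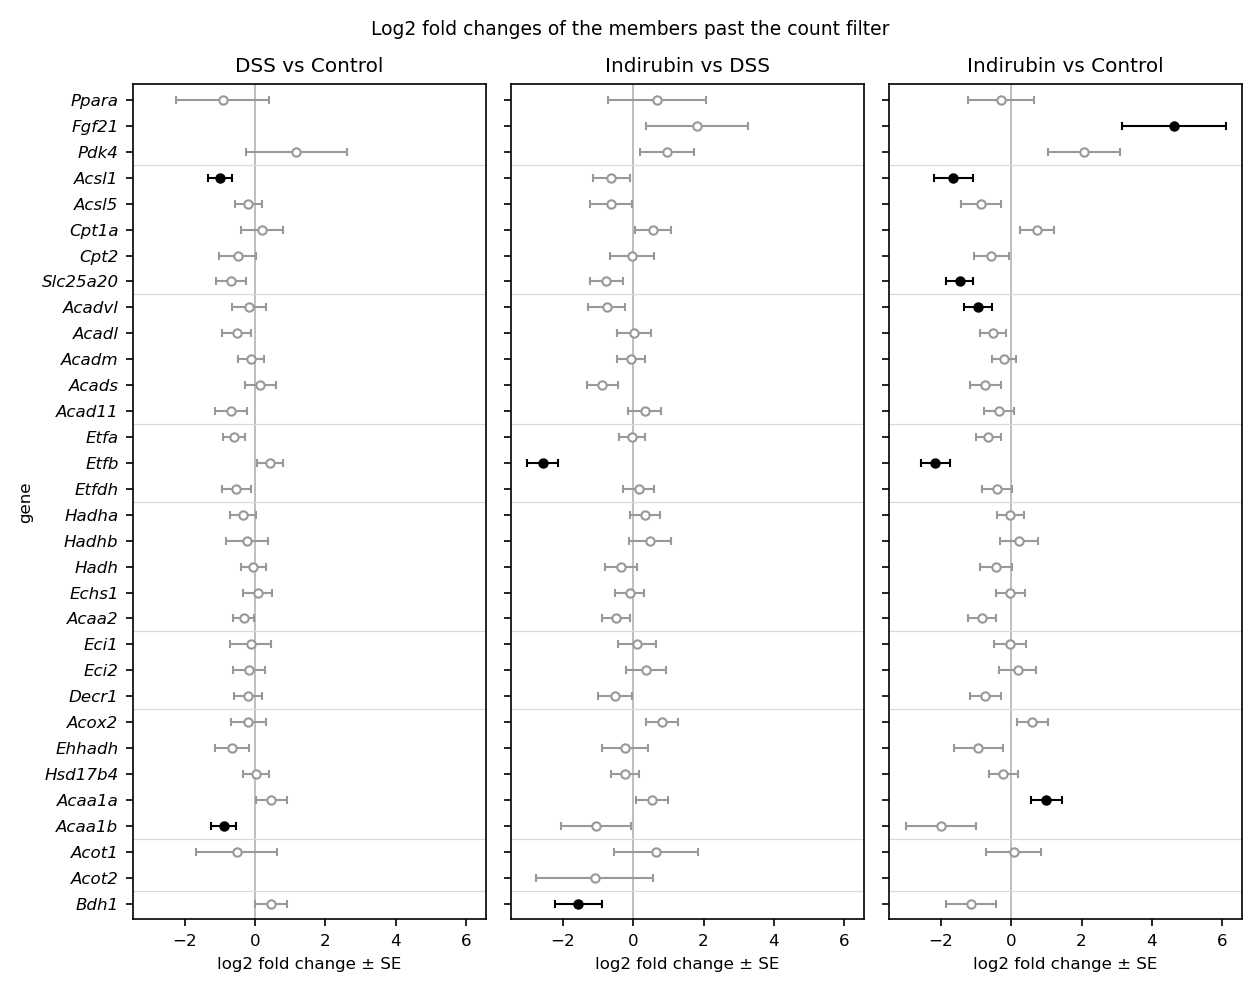
Log2 fold change ± SE from edgeR's quasi-likelihood test (horizontal axis) of each member past the count filter (rows, ordered by role) in the 3 comparisons; filled black points have an unadjusted p below 0.05 and open grey points do not. Etfb lies furthest to the left in both comparisons with Indirubin, at -2.57 against DSS and -2.15 against Control.

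Electron transfer flavoprotein, built of the subunits encoded by Etfa and Etfb, takes electrons from the acyl-CoA dehydrogenases and hands them to the oxidoreductase encoded by Etfdh. Etfb (chr7:43093507-43107224, + strand, GRCm39) had 14, 27.1 and 19.5 normalized CPM in Control, 18.7, 22.9 and 37.8 in DSS, and 5.14, 4.02 and 4.23 in Indirubin. Every Indirubin library lay below every other library, from counts of 28, 49 and 49 against 72 to 414 elsewhere. Against DSS, the log2 fold change was -2.57 ± 0.44 (SE), with an unadjusted edgeR p of 7.34e-05 and an adjusted p of 0.223, the 3rd smallest p of the 9117 genes tested. Against Control it was -2.15 ± 0.41, with an adjusted edgeR p of 0.0549. Over the alternatives fitted, the adjusted p ran from 0.00033 to 0.99989 against DSS and from 0.000595 to 0.328 against Control, while the log2 fold change stayed between -2.87 and -2.23 and between -2.40 and -1.21. Indirubin-1, which had acinar markers at 10.3 normalized CPM, was low by itself: with that library as the group, the log2 fold change was -2.36 ± 0.73 against DSS and -1.98 ± 0.61 against Control, with unadjusted edgeR p-values of 0.0045 and 0.00387 and adjusted values of 0.99989 and 0.267. In DSS against Control, Etfb had a log2 fold change of 0.42 ± 0.37 and overlapping ranges.

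Etfa, the partner subunit (chr9:55361792-55419527, - strand), had 53.3, 55.7 and 36.5 normalized CPM in Control, 35.0, 26.2 and 31.4 in DSS, and 29.9, 34.8 and 26.0 in Indirubin. Control lay above both other groups, which overlapped each other. The log2 fold change was -0.61 ± 0.31 for DSS against Control and -0.65 ± 0.35 for Indirubin against Control, with adjusted edgeR p-values of 0.721 and 0.446. The latter was -0.71 ± 0.45 without Indirubin-2 and Indirubin-3, and the log2 fold change of Indirubin against DSS was -0.03 ± 0.36. A ratio of the subunits within each library needs no scaling between libraries. For every Etfa count there were 0.263, 0.487 and 0.533 Etfb counts in Control, 0.536, 0.872 and 1.21 in DSS, and 0.172, 0.115 and 0.163 in Indirubin. The 3 groups did not overlap in this ratio, although Control and DSS nearly met, and it was chosen after the values were seen and carries no test. Etfdh had 16.2 ± 5.87 normalized CPM in Control (SD, n = 3), 10.8 ± 2.5 in DSS and 12.1 ± 4.58 in Indirubin, with overlapping ranges.

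**Figure D3:**
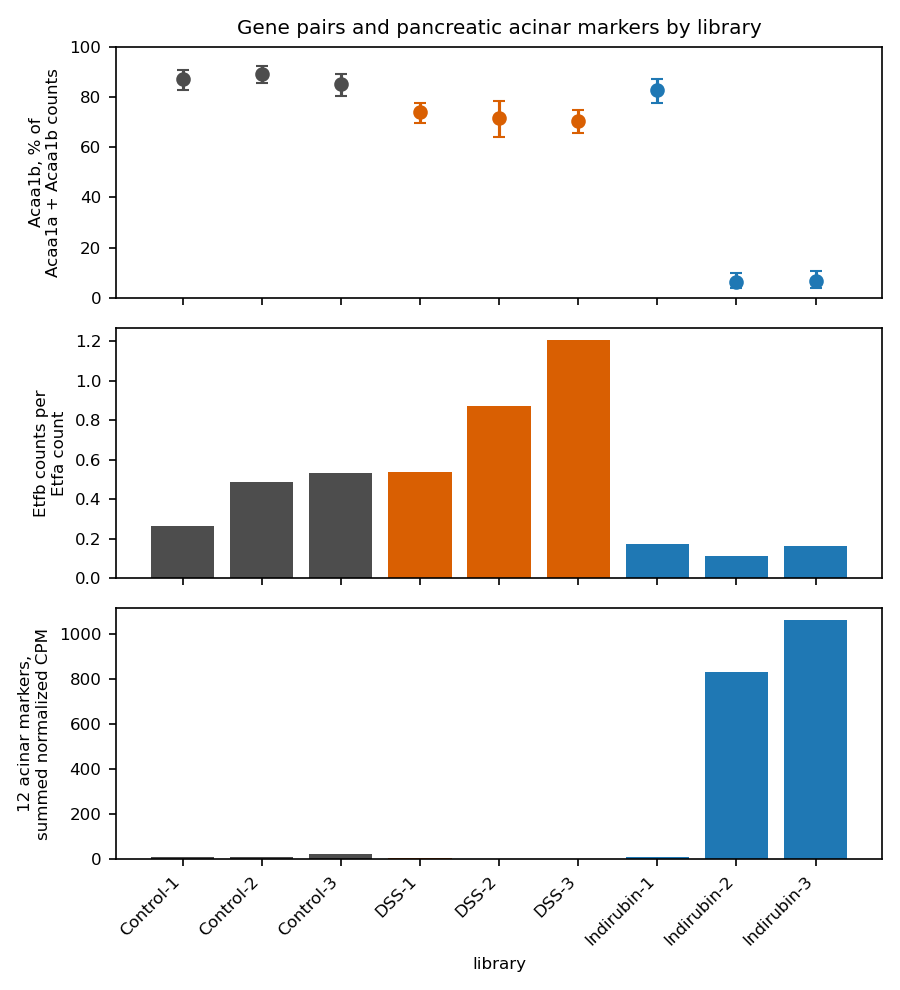
Share of the Acaa1a and Acaa1b counts that fell on Acaa1b (top, percent, with 95% Clopper-Pearson intervals for counting error), Etfb counts per Etfa count (middle) and the summed normalized CPM of 12 pancreatic acinar markers (bottom) in each of the 9 libraries, coloured by group. The Etfb ratio is at most 0.172 in all 3 Indirubin libraries, whereas the Acaa1b share is low only in Indirubin-2 and Indirubin-3, the libraries with 833 and 1062 normalized CPM of acinar markers.

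The final cut of each round is a thiolysis, and in peroxisomes it is made by the thiolases Acaa1a and Acaa1b, whose genes are close relatives and lie on the same chromosome. Reads shared by near-identical copies may have been split between them by the authors' counting, so their separate values are uncertain. Acaa1b (chr9:118977091-118986161, - strand, GRCm39) had 54.3, 55.5 and 59.2 normalized CPM in Control, 42.8, 20.2 and 25 in DSS, and 40.4, 1.39 and 1.38 in Indirubin. All DSS and Indirubin libraries lay below the narrow Control range, and Indirubin-2 and Indirubin-3 were far below every other library, with 17 and 16 counts. For DSS against Control the log2 fold change was -0.90 ± 0.34, with an unadjusted edgeR p of 0.0213 and an adjusted p of 0.488. It was -0.22 when libraries were scaled by total counts alone. The log2 fold change of Indirubin against Control was -2.0 ± 0.98 with an adjusted edgeR p of 0.401, and it became -5.44 ± 0.39 with an adjusted edgeR p of 1.85e-05 once Indirubin-1 was left out. Without Indirubin-2 and Indirubin-3 it was -0.49 ± 0.42, with an unadjusted edgeR p of 0.258. Against DSS it was -1.05 ± 0.99 with all 6 libraries, -4.48 ± 0.53 without Indirubin-1 and 0.47 ± 0.57 without Indirubin-2 and Indirubin-3, so that the direction turned.

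Acaa1a (chr9:119168742-119179365, + strand) had the opposite order, with 7.98, 6.69 and 10.2 normalized CPM in Control, 15.1, 7.97 and 10.4 in DSS, and 8.45, 20.6 and 19.4 in Indirubin. Indirubin-2 and Indirubin-3 were above all other libraries and Indirubin-1 was within the Control range. Against Control, the log2 fold change of Indirubin was 1.0 ± 0.44, with an unadjusted edgeR p of 0.0434 and an adjusted p of 0.338. It was 0.011 ± 0.65 without Indirubin-2 and Indirubin-3, with an unadjusted edgeR p of 0.986, and by total counts alone 2.12. Acaa1b took 87.2%, 89.2% and 85.3% of the counts of the pair in Control, 74.0%, 71.7% and 70.5% in DSS, and 82.7%, 6.34% and 6.67% in Indirubin. The 95% Clopper-Pearson intervals ran from 77.6% to 87.1% for Indirubin-1, from 3.74% to 9.96% for Indirubin-2 and from 3.86% to 10.6% for Indirubin-3, and cover counting error only. The DSS libraries thus all had a lower share than the Control libraries, and within the Indirubin group the libraries with acinar markers had a low share and the remaining library did not. The summed level of the pair was 64.6 ± 4.15 normalized CPM in Control, 40.5 ± 15.5 in DSS and 30.5 ± 15.9 in Indirubin (SD, n = 3).

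**Figure D4:**
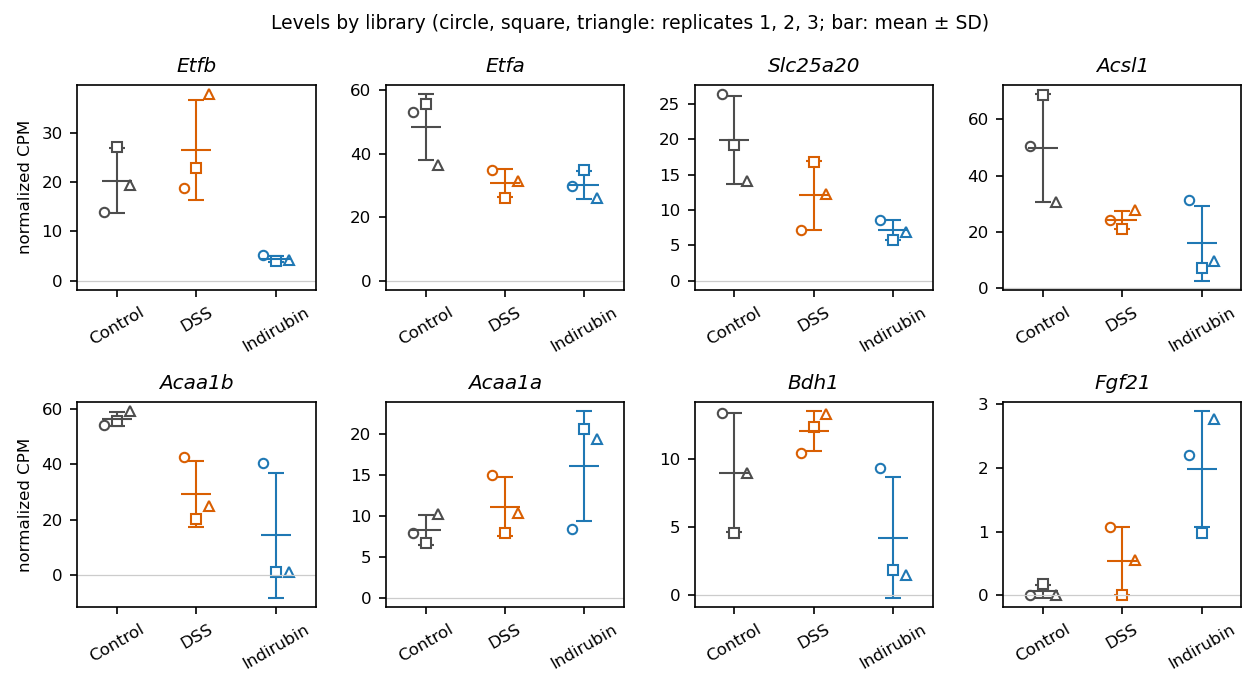
Normalized CPM (vertical axis) of 8 members in each library, by group; circles, squares and triangles are replicates 1, 2 and 3, and the bars are the mean ± SD of 3 libraries. Etfb is at 4.02 to 5.14 in Indirubin against 14 to 37.8 elsewhere, while for Acsl1, Acaa1b and Bdh1 the circle of Indirubin-1 lies well above the other Indirubin libraries.

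Entry into oxidation begins with the acyl-CoA synthetases. Acsl1 (chr8:46924074-46989088, + strand), the main long-chain acyl-CoA synthetase of liver, had 50.4, 68.9 and 30.4 normalized CPM in Control, 24.1, 20.9 and 27.6 in DSS, and 31.2, 6.97 and 9.50 in Indirubin. The DSS libraries were all below the Control libraries, and Indirubin-1 was slightly above the lowest Control library. DSS against Control gave a log2 fold change of -1.0 ± 0.34, with an unadjusted edgeR p of 0.0111 and an adjusted p of 0.388, and -0.32 when scaled by total counts alone. Indirubin against Control gave -1.65 ± 0.55 with an adjusted edgeR p of 0.197, -0.99 when scaled by total counts alone, and -0.68 without Indirubin-2 and Indirubin-3. Without Indirubin-1 it was -2.70 ± 0.41, with an adjusted edgeR p of 0.00271. Indirubin against DSS gave -0.62 ± 0.54, and -1.66 ± 0.41 without Indirubin-1. It was 0.37 without Indirubin-2 and Indirubin-3, so that the direction turned. Acsl5, another synthetase, had 21.0 ± 7.01 normalized CPM in Control, 18.0 ± 7.67 in DSS and 11.7 ± 9.88 in Indirubin (SD, n = 3), with 22.8 in Indirubin-1 and 3.85 and 8.38 in the other Indirubin libraries. Its log2 fold change of Indirubin against Control was -0.85 ± 0.56, and 0.10 ± 0.50 without Indirubin-2 and Indirubin-3.

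The carnitine route then moves the acyl group across the inner mitochondrial membrane. Slc25a20 (chr9:108539287-108561840, + strand), the carnitine-acylcarnitine carrier, had 26.5, 19.2 and 14.1 normalized CPM in Control, 7.11, 16.8 and 12.2 in DSS, and 8.63, 5.82 and 6.91 in Indirubin. The 3 Indirubin libraries were below the 3 Control libraries, and DSS overlapped both. Indirubin against Control gave a log2 fold change of -1.47 ± 0.39, with an unadjusted edgeR p of 0.00291 and an adjusted p of 0.133, -0.56 when scaled by total counts alone, and -1.22 ± 0.56 without Indirubin-2 and Indirubin-3. Cpt1a, which makes the carnitine ester and sets the pace of the pathway, had 6.62, 6.52 and 2.68 normalized CPM in Control, 2.96, 8.51 and 6.12 in DSS, and 7.16, 9.18 and 9.68 in Indirubin. Each Indirubin library was above each Control library, yet the log2 fold change of 0.74 ± 0.48 had an adjusted edgeR p of 0.548, and it was 0.42 ± 0.78 without Indirubin-2 and Indirubin-3. Cpt2, which reverses the reaction inside, was at 10 ± 2.32, 6.80 ± 3.96 and 6.75 ± 3.72 normalized CPM (Control, DSS and Indirubin, SD, n = 3).

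Among the acyl-CoA dehydrogenases that open each round, Acadvl, which acts on very long chains, had 13.8, 10.2 and 14.9 normalized CPM in Control, 18.6, 5.49 and 9.23 in DSS, and 4.96, 8.11 and 6.65 in Indirubin. The Indirubin libraries were below the Control libraries, and DSS overlapped both. The log2 fold change of Indirubin against Control was -0.94 ± 0.41 with an adjusted edgeR p of 0.319, and it turned to 0.13 when libraries were scaled by total counts alone. It was -1.40 ± 0.64 without Indirubin-2 and Indirubin-3. Acadl and Acadm, for long and medium chains, were at 20.0 ± 1.98 and 20.7 ± 2.02 normalized CPM in Control, 13.5 ± 6.15 and 18.5 ± 6.24 in DSS, and 13.7 ± 4.90 and 17.7 ± 1.85 in Indirubin. Acads, for short chains, ranged from 6.09 to 15.9 in Control, 7.62 to 16 in DSS and 5.88 to 7.62 in Indirubin. Acad11, a dehydrogenase of long chains, ranged from 5.14 to 20.2 over all libraries. The summed level of these 5 genes was 79.4 ± 4.68 in Control, 64.3 ± 1.96 in DSS and 55.8 ± 6.27 in Indirubin, with Control above both other groups in every library. As a sum over chosen genes it carries no test, and 0 of the 5 passed an adjusted p of 0.05.

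None of the 5 genes of the later mitochondrial steps or of the 3 auxiliary enzymes had an unadjusted p below 0.05 in any comparison with edgeR when all 6 libraries were fitted. Without Indirubin-1, the unadjusted edgeR p of Acaa2, Decr1 and Hadh was 0.0019, 0.0115 and 0.0178 against Control and 0.0189, 0.0460 and 0.0307 against DSS, each lower in Indirubin. With Indirubin-1 alone as the group their log2 fold changes were -0.33 ± 0.43, -0.11 ± 0.56 and 0.28 ± 0.49 against Control and 0.05 ± 0.52, 0.15 ± 0.66 and 0.39 ± 0.57 against DSS, so that the direction turned for Hadh against Control and for all 3 against DSS. Hadha and Hadhb, the subunits of the trifunctional protein, whose genes lie head to head on chromosome 5, were at 16.8 ± 1.78 and 4.93 ± 0.91 normalized CPM in Control, 12.9 ± 2.87 and 4.08 ± 0.988 in DSS, and 16.4 ± 5.03 and 5.76 ± 2.86 in Indirubin. Acaa2 had 91.8, 58.5 and 84.5 normalized CPM in Control, 57.0, 64.0 and 61.8 in DSS, and 63.0, 28.2 and 38.8 in Indirubin, so that only Indirubin-2 and Indirubin-3 were below all DSS libraries. Hadh, the dehydrogenase of shorter chains, had 27.2 in Indirubin-1 but 9.01 and 12.9 in the other Indirubin libraries, against 13.9 to 29.0 in Control and 17.0 to 24.1 in DSS. Echs1, the hydratase, ranged from 11.1 to 26.6 over the 9 libraries with 3 group means between 20.4 and 21.7. Of the enzymes for unsaturated chains, Decr1, a reductase, was at 13.2 ± 3.86 in Control and 11.1 ± 2.21 in DSS, and in Indirubin had 12.3, 5.49 and 5.79. The isomerases Eci1 and Eci2 ranged from 3.37 to 15.3 and from 5.32 to 22.9, with overlap in every comparison.

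In peroxisomes, Ehhadh, the bifunctional hydratase and dehydrogenase, had 25.5, 13.0 and 6.33 normalized CPM in Control, 9.36, 9.22 and 8.96 in DSS, and 17.3, 2.29 and 4.32 in Indirubin. Its DSS libraries were nearly equal, while Control and Indirubin spread widely. The log2 fold change of Indirubin was -0.94 ± 0.69 against Control and -0.23 ± 0.65 against DSS. Without Indirubin-1 these were -2.29 ± 0.62 and -1.57 ± 0.57, with unadjusted edgeR p-values of 0.00352 and 0.0184. They were 0.19 and 0.91 without Indirubin-2 and Indirubin-3, so that the direction turned. Acox2, the oxidase of branched chains and bile acid intermediates, had 14.8, 8.10 and 6.58 in Control, 10.1, 9.75 and 5.12 in DSS, and 10.6, 20.8 and 12.4 in Indirubin. All Indirubin libraries were above all DSS libraries, Indirubin-1 by a small margin, and the log2 fold change of 0.82 ± 0.46 had an adjusted edgeR p of 0.767, and it was 0.37 ± 0.73 without Indirubin-2 and Indirubin-3. Hsd17b4, the other bifunctional enzyme, was at 19.6 ± 8.02, 19.5 ± 3.52 and 16.6 ± 4.30 (Control, DSS and Indirubin, SD, n = 3). The cytosolic and mitochondrial thioesterases Acot1 and Acot2, which release free fatty acids from coenzyme A and are near-identical copies, had 0 to 42 and 0 to 40 counts per library, with overlapping ranges in every comparison, and Acot2 passed the filter in 1 of the 3 fits.

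Bdh1 (chr16:31241098-31277719, + strand), which interconverts the ketone bodies acetoacetate and β-hydroxybutyrate, had 13.4, 4.58 and 9.01 normalized CPM in Control, 10.4, 12.4 and 13.3 in DSS, and 9.36, 1.80 and 1.47 in Indirubin. Indirubin lay below DSS in every library, but Indirubin-1 only just, and Control overlapped both. Against DSS the log2 fold change was -1.56 ± 0.67, with an unadjusted edgeR p of 0.0378 and an adjusted p of 0.624. It was -2.98 ± 0.56 without Indirubin-1 and -0.36 without Indirubin-2 and Indirubin-3. Against Control it was -1.14 ± 0.72 with all 6 libraries, -2.56 ± 0.66 without Indirubin-1 and 0.04 without Indirubin-2 and Indirubin-3.

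The regulators were few in counts. Fgf21 (chr7:45263310-45264914, - strand), a fasting hormone of the liver, had 0, 1 and 0 counts in Control, 9, 0 and 6 in DSS, and 12, 12 and 32 in Indirubin. From 56 counts against 1, the level in Indirubin was 28.6 times that in Control, with a 95% interval from 4.93 to 1149 that covers counting error only. The adjusted edgeR p was 0.184 for a gene that passed the filter only where it was high, and with Indirubin-1 alone as the group it did not pass. DSS overlapped both groups. Pdk4, the kinase that holds back pyruvate oxidation, had 2.92, 0.352 and 0 normalized CPM in Control, 4.39, 1.95 and 0.823 in DSS, and 3.67, 4.26 and 5.96 in Indirubin. Indirubin was above Control in every library, with a log2 fold change of 2.07 ± 1.03 and an adjusted edgeR p of 0.402, but Pdk4 passed the filter only through Indirubin. The log2 fold change was 1.70 ± 1.84 without Indirubin-2 and Indirubin-3. Ppara had 7, 15 and 18 counts in Control, 30, 0 and 7 in DSS, and 17, 4 and 39 in Indirubin, with overlap throughout.

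**Figure D5:**
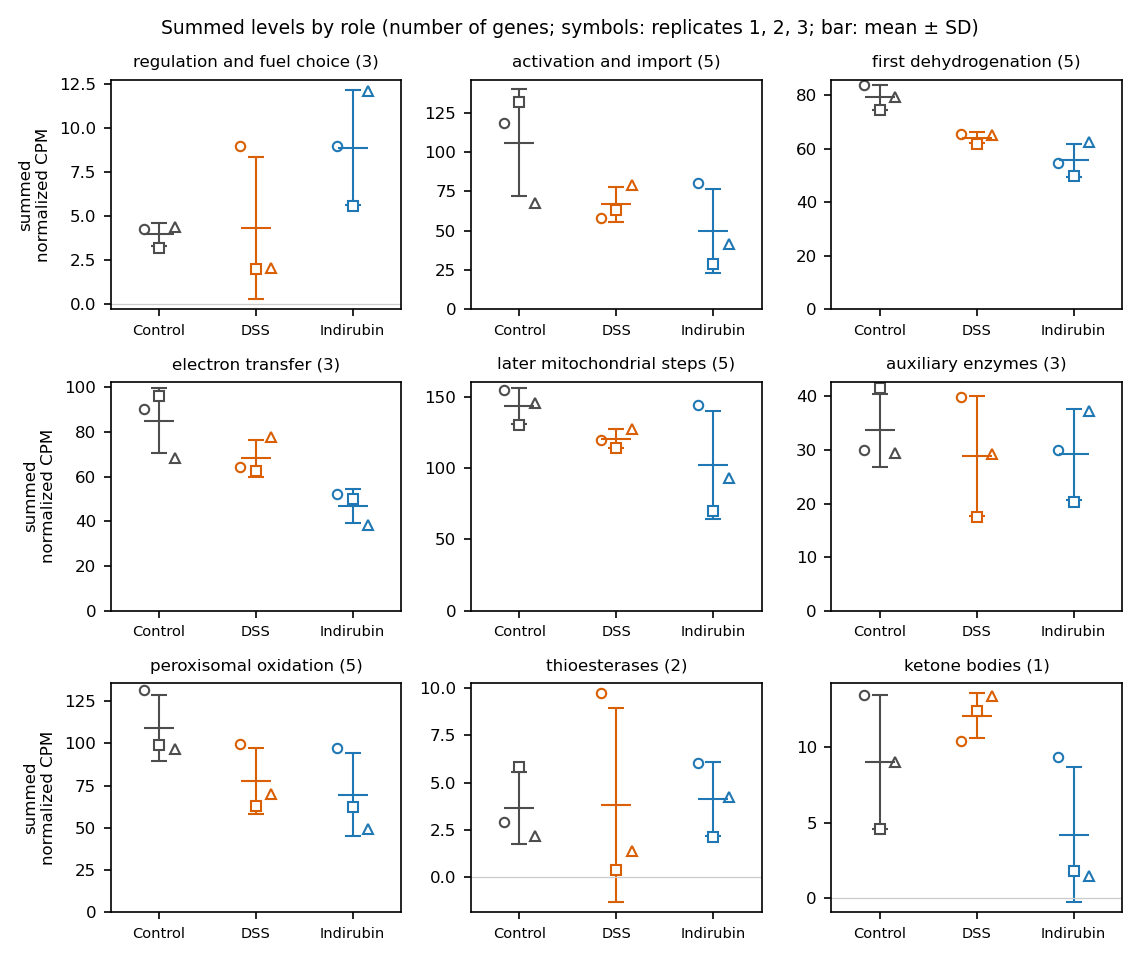
Summed normalized CPM (vertical axis) of the members of each role, with the number of genes in brackets, for the 3 groups; circles, squares and triangles are replicates 1, 2 and 3, and bars are the mean ± SD. The acyl-CoA dehydrogenases of the opening step are at 74.7 to 84.0 in Control, 62 to 65.7 in DSS and 50.1 to 62.5 in Indirubin, whereas the sums for the later mitochondrial steps spread from 69.7 to 144 within Indirubin.

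Seen by library rather than by group, 21 of the 32 members were below the Control range in Indirubin-2 and 16 in Indirubin-3, against 9 in Indirubin-1. Of all 9713 genes past the filter over 9 libraries, 21.5%, 23% and 22.7% were below their Control range in these libraries, in the same order. The DSS libraries had 9, 13 and 13 members below it (23.1%, 33.3% and 19.6% of all genes) and 8, 2 and 5 above it (29.1%, 23.3% and 28.3%). The members above the Control range numbered 6, 5 and 5 in Indirubin-1, Indirubin-2 and Indirubin-3 (30.1%, 33.6% and 33.8% of all genes).

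A further 72 genes of the same pathway, outside the 32, were read from the same fits. In DSS against Control, 56 were tested, 26 with a log2 fold change above 0 and 30 below, and at an unadjusted p below 0.05, 0 were higher and 5 lower, against 3.48% and 4.05% of all genes. The lower genes with the smallest p were Angptl4, an inhibitor of lipoprotein lipase, with a log2 fold change of -1.69 ± 0.39 and an adjusted edgeR p of 0.0798, Scp2, a peroxisomal thiolase and sterol carrier (-0.90 ± 0.28), and Abcd3, a peroxisomal fatty acid transporter (-1.12 ± 0.38). Scaled by total counts alone, the 3 values shrank to -0.98, -0.23 and -0.43. Angptl4 had 21.8, 20.8 and 16.1 normalized CPM in Control and 4.86, 5.32 and 7.50 in DSS. In Indirubin against DSS, 60 were tested, 25 above 0 and 35 below, with 3 higher and 1 lower at an unadjusted p below 0.05, against 4.45% and 3.22% of all genes. Cpt1c, a carnitine palmitoyltransferase relative best known from brain, had 0 counts in every DSS library and 12, 17 and 32 in Indirubin, at least 5.48-fold higher with 3 counts assumed in each DSS library, and it passed the filter only through Indirubin. Cd36, a fatty acid uptake receptor, and Lpin1, a phosphatidate phosphatase and coactivator, were higher with log2 fold changes of 1.82 ± 0.59 and 2.49 ± 0.88, and Bdh2, a relative of Bdh1, was lower with -2.18 ± 0.93. Cd36 and Lpin1 also passed the filter only through Indirubin, and Bdh2 only through DSS, in each case the group where the gene was high, so that these counts are no support. Their log2 fold changes were 1.43, 1.34 and -2.95 without Indirubin-2 and Indirubin-3, with unadjusted edgeR p-values of 0.186, 0.399 and 0.0864.

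In Indirubin against Control, 57 of the 72 were tested, 18 above 0 and 39 below, with 3 higher and 5 lower at an unadjusted p below 0.05, against 7.45% and 6.38% of all genes. Lpin1 had 1.75, 2.29 and 0.244 normalized CPM in Control and 5.14, 9.42 and 20.1 in Indirubin, a log2 fold change of 3.00 ± 0.72 with an adjusted edgeR p of 0.0999. Cd36 was at 1.5 ± 0.58 on the log2 scale, and Cpt1c, with 61 counts in Indirubin against 2 in Control, was 15.6 times as high, with a 95% counting interval from 4.13 to 132. All of Lpin1, Cd36 and Cpt1c passed the filter only through Indirubin, where they were high, and their count is no support. Lower were Scp2 (-1.29 ± 0.40), Slc27a2, a fatty acid transporter and activating enzyme (-1.45 ± 0.47), and Acsm5, a synthetase of medium chains (-1.56 ± 0.56). By total counts alone Cd36 was at 2.49, Scp2 at -0.44, Slc27a2 at -0.68 and Acsm5 at -0.63. Scp2 had 358, 393 and 306 normalized CPM in Control, 193, 175 and 182 in DSS and 202, 112 and 111 in Indirubin, so that Control was above both other groups and these overlapped. Without Indirubin-2 and Indirubin-3 the log2 fold changes of Lpin1, Cd36, Scp2, Slc27a2 and Acsm5 were 1.81, 1.07, -0.81, -0.84 and -1.54, and each had an unadjusted edgeR p above 0.05. With all 6 libraries and the count filter, none of the 72 had an adjusted p below 0.05 in any comparison with edgeR. Of the genes named here, Lpin1, Scp2 and Slc27a2 passed against Control without Indirubin-1 (adjusted edgeR p 0.0226, 0.00388 and 0.0175), Lpin1 also by total counts alone, and Lpin1 passed in both comparisons with no filter. Angptl4 passed in DSS against Control under a filter of 10 counts per library, and by DESeq2 Angptl4 and Scp2 passed there, Cpt1c in Indirubin against DSS, and Lpin1 and Scp2 in Indirubin against Control.

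The promoter windows of the members were searched for the element that PPARα binds, a direct repeat of AGGTCA with 1 base between the copies (DR1). RefSeq windows of 300 bases, from 250 before to 50 after the start of transcription in GRCm38.p6, an earlier build than that of the counts, were at hand for 29 members, some with more than 1 start, and gave 32 windows. Both strands were read and up to 2 mismatches over the 12 fixed bases were allowed. A match was found in 4 of the 32 windows (12.5%) and in 1268 of all 32851 windows (3.86%). With at most 1 mismatch, 0 of the member windows and 0.554% of all windows had a match. The 4 matches are printed along the repeat, with bases that match it in capitals and the mismatches and the spacer in lower case, to show how far each departs from it.
Slc25a20: AGGTgAaAGGTCg
Etfa: AGGgCAaAGGTaA
Echs1: AGGTCAcgGGTCc
Acox2: AGGaCAgAGGTgA
They lie at bases 257 to 269, 174 to 186, 168 to 180 and 260 to 272 of their windows, in the same order, and that of Etfa is on the opposite strand. A match is a likeness of letters and not a shown binding site.

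The windows of the electron transfer flavoprotein subunits and of Slc25a20 are shown because Etfb and Slc25a20 were lower in every Indirubin library than in every Control library and Etfa is the partner of Etfb, a choice made with these values known. The DR1 match is in capitals where there was any. Etfb is at chr7:43443822-43444121 (+ strand), Etfa at chr9:55512194-55512493 (- strand) and Slc25a20 at chr9:108661886-108662185 (+ strand), all in GRCm38.p6 and printed 5′ to 3′ on the strand of the gene.
Etfb: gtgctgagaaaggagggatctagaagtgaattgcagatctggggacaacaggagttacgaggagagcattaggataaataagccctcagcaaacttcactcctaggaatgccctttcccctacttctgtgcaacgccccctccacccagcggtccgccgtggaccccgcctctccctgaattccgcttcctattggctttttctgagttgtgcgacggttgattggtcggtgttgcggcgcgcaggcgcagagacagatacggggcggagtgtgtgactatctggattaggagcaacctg
Etfa: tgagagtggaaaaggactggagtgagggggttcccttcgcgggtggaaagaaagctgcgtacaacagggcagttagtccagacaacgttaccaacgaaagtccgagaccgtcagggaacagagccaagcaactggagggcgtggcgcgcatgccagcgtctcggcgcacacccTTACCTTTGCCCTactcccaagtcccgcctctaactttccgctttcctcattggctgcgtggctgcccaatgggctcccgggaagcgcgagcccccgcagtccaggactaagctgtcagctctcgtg
Slc25a20: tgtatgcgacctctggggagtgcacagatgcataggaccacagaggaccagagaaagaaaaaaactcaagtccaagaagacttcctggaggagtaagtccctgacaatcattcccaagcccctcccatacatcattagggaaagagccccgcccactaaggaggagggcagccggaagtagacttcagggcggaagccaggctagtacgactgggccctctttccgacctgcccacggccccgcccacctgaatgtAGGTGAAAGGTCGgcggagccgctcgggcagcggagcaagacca
Etfb, the member with the smallest p in both comparisons with Indirubin, had no match within 2 mismatches in this window.

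The windows of the thiolase pair are shown because the division of counts between these copies differed so much between libraries. Acaa1a is at chr9:119341044-119341343 (+ strand) and Acaa1b at chr9:119157044-119157343 (- strand), with a G and C content of 53.3% and 43.7%, and neither had a match.
Acaa1a: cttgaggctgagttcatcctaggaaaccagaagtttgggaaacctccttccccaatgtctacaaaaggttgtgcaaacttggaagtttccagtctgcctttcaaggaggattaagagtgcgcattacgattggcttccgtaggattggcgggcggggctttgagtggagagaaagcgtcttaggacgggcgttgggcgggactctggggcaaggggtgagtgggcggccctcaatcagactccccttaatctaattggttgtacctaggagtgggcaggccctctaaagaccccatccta
Acaa1b: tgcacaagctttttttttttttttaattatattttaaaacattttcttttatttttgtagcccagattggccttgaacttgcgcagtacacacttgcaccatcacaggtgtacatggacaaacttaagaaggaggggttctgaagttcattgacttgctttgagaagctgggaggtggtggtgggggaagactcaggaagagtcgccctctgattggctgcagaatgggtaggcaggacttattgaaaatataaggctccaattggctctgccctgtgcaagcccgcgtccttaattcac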

How the data were processed

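RNA from mouse liver was sequenced on a DNBSEQ instrument, and the authors deposited whole-number counts per gene without normalization, on genome build GRCm39 by the submitters' processing notes, with a gene length. The aligner, counter, its use of strand and the annotation are not given in the sources used here. The FPKM values, fold changes and p-values of the authors' own comparisons in that table, and 3 lists of genes, were not used. Groups came from the sample titles. Each comparison used its 6 libraries in edgeR 4.0.16 (R 4.3.3): filterByExpr at a minimum count of 10, TMM, glmQLFit and glmQLFTest, with the SE as the log2 fold change over the square root of F. Levels came from TMM over 9 libraries. DESeq2 1.42.0 was an alternative. The edgeR and DESeq2 fits were tried on counts simulated for Indirubin against DSS, with 200 planted changes and the same variability for every gene. The simulated libraries of a group had the same expected shares of counts, unlike the Indirubin libraries here. Replicates are libraries of a group; where these are not separate mice, p-values measure technical spread.

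All 32 members are named. Fold changes with SE and p were given for up to 10 members with the smallest unadjusted p below 0.05. Others were added with the values known, for members whose groups did not overlap and for the pair Etfa and Etfb. The same was done for members whose differences turned on Indirubin-2 and Indirubin-3 (Acsl5, Acaa2, Decr1, Hadh and Ehhadh). Fgf21, with 1 count in Control, has a ratio of counts instead. Of the 72 other pathway genes up to 3 each way were named, and of each marker list the most counted gene. The members and lists were chosen with earlier results of these data known. Proteins of the gene pairs were not analysed here. Figures were drawn with matplotlib 3.10.9 in Python 3.11.15.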

Additional observations from a re-analysis of the deposited data

How the results depend on the processing

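Depth limits these results: with 569044 to 2132208 nuclear counts per library, members such as Ppara, Fgf21 and Acot2 had too few counts for a fold to be precise, and 3 libraries a group cannot give an exact p below 0.10. Shares in brackets are of all genes tested under the same setting. In the main edgeR fits, 0 members were lower at an adjusted p below 0.05. Indirubin against DSS had 1 by the DESeq2 Wald test (0.877% past that p in either direction), with no filter (0.677%), with a minimum of 10 counts per library (0.0502%), and with all 9 libraries in a single fit (0.0412%). The settings other than DESeq2 were also edgeR fits. Indirubin against Control had 2 by DESeq2 (3.92%), 3 with no filter (1.66%), and 1 with either of the other settings (2% and 0.577%). With total counts alone as the scale, members higher at an unadjusted p below 0.05 became 2 in DSS against Control (845 of all 7482 genes) and 5 in Indirubin against Control (2115 of all 8059), members lower became 0 in both (0.949% and 1.33%), and the medians became 0.47, 0.18 (Indirubin against DSS) and 0.47. Acadvl in Indirubin against Control reversed there, to 0.13. All 9 libraries in a single fit left 1 member lower in DSS against Control (3.84%). In Indirubin against Control, members higher were 1 with that minimum of 10 counts (8.61%), 0 without mitochondrial genes (6.38%) and 1 with the replicate block (6.03%).

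A pair of settings was chosen after seeing the data. Nuclear counts alone as the scale gave 1 member lower in Indirubin against DSS (2.01%), and 1 higher (8.42%) and a median of -0.26 in Indirubin against Control. Without Indirubin replicates 2 and 3 together, 1 member was lower (1.92%) and the median was 0.32 in Indirubin against DSS, and 0 were higher (2.72%) and the median was 0.037 in Indirubin against Control. The cause of these changes was not tested.

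With each library left out in turn, the count of members lower at an unadjusted p below 0.05 ran from 1 to 4 in DSS against Control (2.41% to 5.05%), 1 to 9 in Indirubin against DSS (1.48% to 5.35%) and 3 to 12 in Indirubin against Control (3.35% to 8.8%), members higher from 1 to 2 in the last (5.06% to 9.54%), and the medians from -0.36 to -0.21, from -0.30 to 0.11 and from -0.75 to -0.20. Members lower at an adjusted p below 0.05 ran from 0 to 3 in Indirubin against DSS (0% to 1.24% in either direction) and from 0 to 6 in Indirubin against Control (0.01% to 4.78%), with both highest values without Indirubin-1. Libraries of the same title number did not deviate together (correlations from -0.04 to 0.04 across genes), which cannot show that they share nothing else. The submitters' own library names number the Indirubin libraries differently from the titles, and pairing by those names was not tested. With the replicate block by title number, 2, 3 and 7 members were lower in the 3 comparisons (3.85%, 3.58% and 6.79%) against 2, 2 and 4 without it (4.05%, 3.22% and 6.38%). The share of member promoter windows with a match was 12.5%, and 0% with 1 or 0 mismatches.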
